A study of Mus musculus with 8 samples.

Results

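Microglial genes are genes whose RNA marks microglia, the resident macrophages of the brain. A list of 30 such genes was read in cortex with and without Nova2, an RNA-binding protein of neurons that regulates alternative splicing. Total RNA came from the cortex of CD1 mice, an outbred stock, at postnatal day 10, with 1 exon array per mouse. By the labels, 4 mice were wild type and 4 lacked Nova2 (knockout, written Nova2 KO), with no treatment named. The labels do not give the deleted part of Nova2, and the tissue is whole cortex, so microglia were measured together with neurons, other glia and vessels.

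An exon array carries several probe sets along a gene. Of the 30 listed genes, 18 were named alone by 1 or more probe sets, and all 18 had a gene value, the median log2 signal over the gene's kept probe sets, which needs 3 or more of them. They held 250 probe sets, of which 213 passed the filter on low signal, out of 293697 kept on the whole array. The series as a whole had gene values for 11992 genes. Gpr34, Spi1, Sall1, Itgb2, Tyrobp, Trem2, Siglech, Mpeg1, Mertk, Tmem119 and Ly86 were on no named probe set, and the 4 probe sets that named Fcgr3 also named Fcgr2b, so these 12 genes were not analysed here.

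Microglia enter the brain before birth and then depend on the receptor Csf1r, whose ligands in the brain are Csf1 and Il34, the latter made largely by neurons. They sense neurons through receptors such as Cx3cr1 and P2ry12, and take up synapses, cell debris and myelin with the help of complement C1q and the integrin complement receptor that contains Itgam. In the early postnatal cortex they multiply and mature while synapses and myelin form. Transcription factor PU.1, the product of Spi1, is known to drive many of their genes through DNA that contains a purine-rich GGAA core.

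To show such cores at genes described below, the 100 bases just before the RefSeq transcription start are given for 3 listed genes. They are from build GRCm38.p6, 5′ to 3′ on the gene's strand. Capitals mark only the motif GAGGAA, which holds the GGAA core, or its reverse complement. Other GGAA cores, present in the windows of C1qb and Laptm5, stay in lower case. Itgam is shown as the listed gene with the lowest p in Nova2 KO. C1qb and Laptm5 are further genes with the motif in these 100 bases. Array wild type 4 held the highest value for both, and for 9 of the 18 measured genes in all, Itgam included. Of those genes, C1qc and Cd68 had the motif only further from the start, at positions -193 and -225. Any relation of the motif to the values on that array was not tested. The windows lie at chr7:128062540-128062639 on the plus strand for Itgam, chr4:136886201-136886300 on the minus strand for C1qb and chr4:130913216-130913315 on the plus strand for Laptm5.
Itgam: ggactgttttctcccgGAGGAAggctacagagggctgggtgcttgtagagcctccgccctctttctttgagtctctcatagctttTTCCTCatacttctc
C1qb: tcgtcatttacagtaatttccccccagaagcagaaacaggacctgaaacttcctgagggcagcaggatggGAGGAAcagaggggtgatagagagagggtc
Laptm5: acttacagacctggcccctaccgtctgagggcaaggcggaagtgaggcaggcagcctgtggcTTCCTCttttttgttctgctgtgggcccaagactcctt
Searched on both strands in the 250 bases before a start, GAGGAA was found in 13 of 27 start windows of the 22 listed genes with an entry (48.1%), against 23.3% of 32851 windows of all genes. The 13 windows belong to 12 genes, as the Fcgr3 windows with the motif overlap and hold the same site. Fcgr3 and Trem2 were counted here although they were not measured on the arrays. A match is a description of the letters and no evidence of binding.

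Nova2 itself was read first. Its probe set 5294108 lay at 8.53 to 8.87 log2 in wild type and at 6.28 to 7.26 log2 in Nova2 KO, without overlap (limma adjusted p = 0.0786 over all kept probe sets). Of the other Nova2 probe sets, 4414499 (0.70 log2) and 4355944 (0.40 log2) were without overlap in the opposite direction, with adjusted p-values of 0.321 and 0.700. The gene value of Nova2, a median over its probe sets, had a difference of -0.016 log2 (SE 0.11, adjusted p = 0.975 by limma). Array medians ran from 7.02 log2 (wild type 4) to 7.37 log2, and 0.991% to 3.34% of probe sets sat at the lowest signal, most of all on wild type 4. The neuron marker Stmn2 averaged 12.4 log2 in wild type, and 11 of 12 listed neuron markers were measured.

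No microglial gene passed the test. Of the 18 measured genes, 12 were lower and 6 higher in Nova2 KO, with a median difference of -0.055 log2, against 0.022 log2 over all 11992 genes. Values below 0 were found for 44.6% of all genes. With limma over all genes (Benjamini-Hochberg adjusted p under 0.05), 0 of the 18 passed, where 0.208% of all genes did. At an unadjusted p under 0.05 there were 2 of the 18, Itgam and P2ry12, against 11.6% of all genes. For 0 of the 18 were the 4 Nova2 KO values all above or all below the 4 of wild type, against 2.5% of all genes with Nova2 KO below and 5.06% with Nova2 KO above. In whole tissue, a change in the number of microglia and a change in RNA per microglial cell cannot be told apart.

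**Figure D1:**
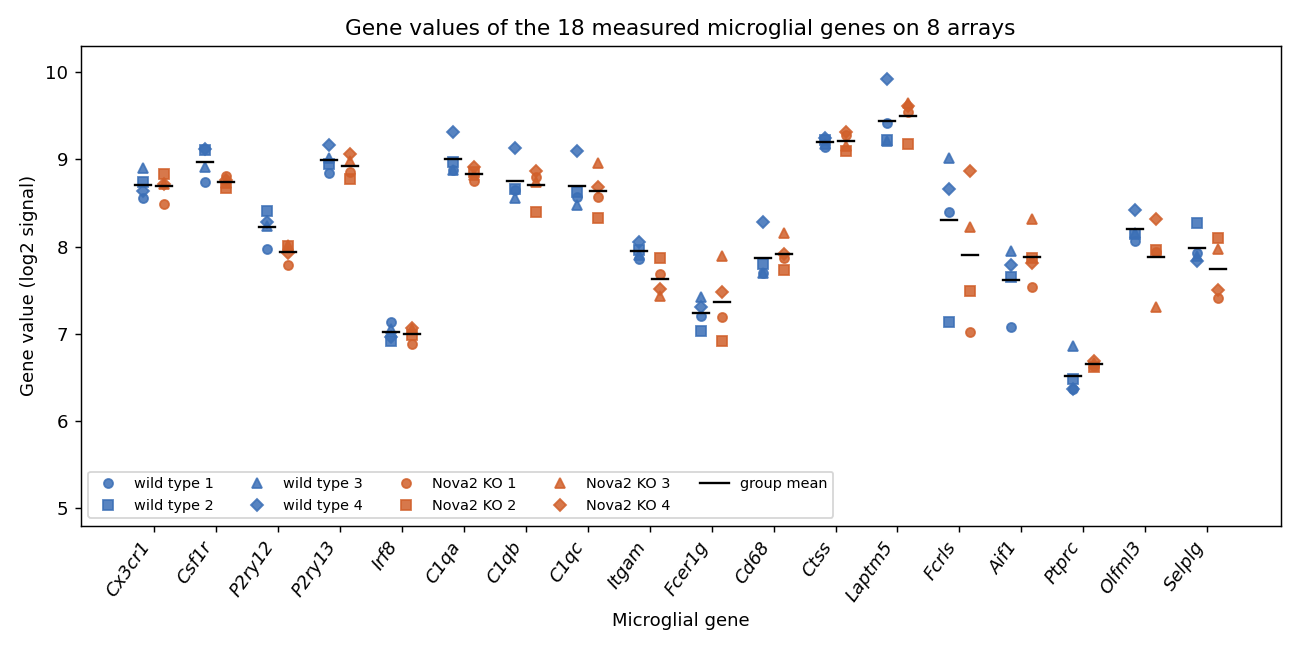
Gene values (log2 signal, y axis) of the 18 measured microglial genes (x axis) on 8 arrays, with wild type in blue, Nova2 KO in orange, a symbol per replicate number and black bars for group means. The groups overlap for every gene plotted, and the widest scatter is that of Fcrls, from 7.02 to 9.01 log2.

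Among the receptors, P2ry12, the ADP receptor by which microglial processes find injury, had gene values of 7.97, 8.41, 8.24 and 8.28 log2 on wild type arrays 1 to 4 and of 7.79, 8.01, 8.02 and 7.93 log2 on Nova2 KO arrays 1 to 4. Wild type 1 was the single wild type array within the Nova2 KO range. The difference was -0.29 log2 (SE 0.11, n = 4 per group, 95% interval -0.53 to -0.046, limma adjusted p = 0.343). With the mean over probe sets in place of the median it was -0.089 log2. Of the 6 kept probe sets of P2ry12, 5 were lower and 1 higher, from -0.40 to 0.34 log2. The brightest, 4478003 (10.4 log2 in wild type), differed by -0.040 log2.

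Csf1r, the receptor on which microglial survival depends, was at 8.74, 9.11, 8.91 and 9.12 log2 in wild type and at 8.81, 8.67, 8.73 and 8.76 log2 in Nova2 KO. Again wild type 1 lay within the Nova2 KO values and the other wild type arrays above them. The difference was -0.23 log2 (SE 0.11, 95% interval -0.46 to 0.0070, adjusted p = 0.445).

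Cx3cr1, the receptor for the neuronal chemokine Cx3cl1, was at 8.55, 8.74, 8.90 and 8.64 log2 in wild type and at 8.48, 8.83, 8.72 and 8.72 log2 in Nova2 KO, so that the groups covered nearly the same range. Its difference of -0.021 log2 had a 95% interval from -0.26 to 0.22 log2. P2ry13, another ADP receptor, differed by -0.073 log2 (95% interval -0.31 to 0.16), and by -0.015 log2 without wild type 4. The 1 measured transcription factor, Irf8, which directs macrophage development together with PU.1, differed by -0.024 log2 (95% interval -0.23 to 0.18). The limma adjusted p was 0.968 for Cx3cr1, 0.836 for P2ry13 and 0.956 for Irf8.

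Of the complement genes, Itgam, which encodes the alpha chain of complement receptor 3 (CD11b), had the lowest p of the list. It was at 7.86, 7.96, 7.90 and 8.05 log2 in wild type and at 7.68, 7.87, 7.43 and 7.51 log2 in Nova2 KO. Nova2 KO 2 lay just above wild type 1, and the other Nova2 KO arrays lay below all of wild type. The means were 7.94 ± 0.082 and 7.62 ± 0.19 log2 (SD, n = 4), a difference of -0.32 log2 or 1.25-fold, with a limma adjusted p of 0.299 (SE 0.11, 95% interval -0.56 to -0.076).

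C1q, the secreted protein that opens the classical complement cascade, has 3 chains, and each had its highest value on the same array. C1qb was at 8.65, 8.66, 8.56 and 9.13 log2 in wild type and at 8.80, 8.40, 8.74 and 8.86 log2 in Nova2 KO. C1qa (9.31 log2) and C1qc (9.10 log2) were also highest on wild type 4, and the remaining arrays lay between 8.75 and 8.97 log2 for C1qa and between 8.33 and 8.95 log2 for C1qc. The differences were -0.18 log2 for C1qa, -0.050 log2 for C1qb and -0.060 log2 for C1qc, with SEs of 0.11, 0.14 and 0.16. Without wild type 4 they were -0.077, 0.077 and 0.076 log2, so the sign of C1qb and C1qc turned with that array.

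Fcer1g, the Fc receptor gamma chain and the 1 measured signalling adaptor, was at 7.21, 7.03, 7.43 and 7.31 log2 in wild type and at 7.19, 6.91, 7.89 and 7.47 log2 in Nova2 KO. Nova2 KO 3 was the highest array and Nova2 KO 2 the lowest, and the difference of 0.13 log2 (SE 0.18) became -0.049 log2 without Nova2 KO 3.

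The phagocytic and lysosomal genes had differences close to 0. Cd68, a lysosomal glycoprotein, was at 7.70, 7.80, 7.70 and 8.28 log2 in wild type and at 7.87, 7.73, 8.15 and 7.91 log2 in Nova2 KO. Wild type 4 stood above all other arrays. Its difference was 0.049 log2 (95% interval -0.26 to 0.36), and 0.19 log2 without wild type 4. Laptm5, a lysosomal membrane protein of blood-derived and microglial cells, had the same highest array, at 9.92 log2, with the other 7 arrays at 9.18 to 9.65 log2. It differed by 0.050 log2 (95% interval -0.30 to 0.40), and by 0.21 log2 without wild type 4. Ctss, the protease cathepsin S, had the lowest SD within groups of the list (0.081 log2), lay between 9.10 and 9.31 log2 over the 8 arrays, and differed by 0.017 log2 (95% interval -0.19 to 0.22).

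Of the other markers, Aif1 (Iba1), an actin-binding protein used to stain microglia, was at 7.08, 7.65, 7.95 and 7.79 log2 in wild type and at 7.53, 7.87, 8.31 and 7.81 log2 in Nova2 KO. Its difference of 0.26 log2 (SE 0.19, limma adjusted p = 0.636) was the highest of the list, with wild type 1 the lowest and Nova2 KO 3 the highest array. Without wild type 1 it came to 0.081 log2, and without Nova2 KO 3 to 0.12 log2. Ptprc (CD45), a phosphatase of blood-derived cells, was at 6.37 to 6.86 log2 in wild type and at 6.61 to 6.69 log2 in Nova2 KO, a difference of 0.13 log2 (SE 0.12). It was 0.24 log2 without wild type 3, 0.078 log2 without wild type 4 and 0.0029 log2 with the filter at the 50th percentile.

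Olfml3, a secreted protein, was at 8.06, 8.15, 8.15 and 8.42 log2 in wild type and at 7.94, 7.96, 7.30 and 8.32 log2 in Nova2 KO. Nova2 KO 3 was lowest, and the difference of -0.32 log2 (SE 0.18, adjusted p = 0.517 by limma) was -0.12 log2 without that array. Selplg, the selectin ligand PSGL-1, was at 7.92, 8.27, 7.89 and 7.83 log2 in wild type and at 7.41, 8.10, 7.98 and 7.50 log2 in Nova2 KO. Nova2 KO 1 and Nova2 KO 4 lay below all wild type arrays and the other two within their range, with a difference of -0.23 log2 (SE 0.16). Leaving out single arrays moved it from -0.35 log2 without Nova2 KO 2 to -0.12 log2 without Nova2 KO 1, and it was -0.39 log2 with no filter.

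**Figure D2:**
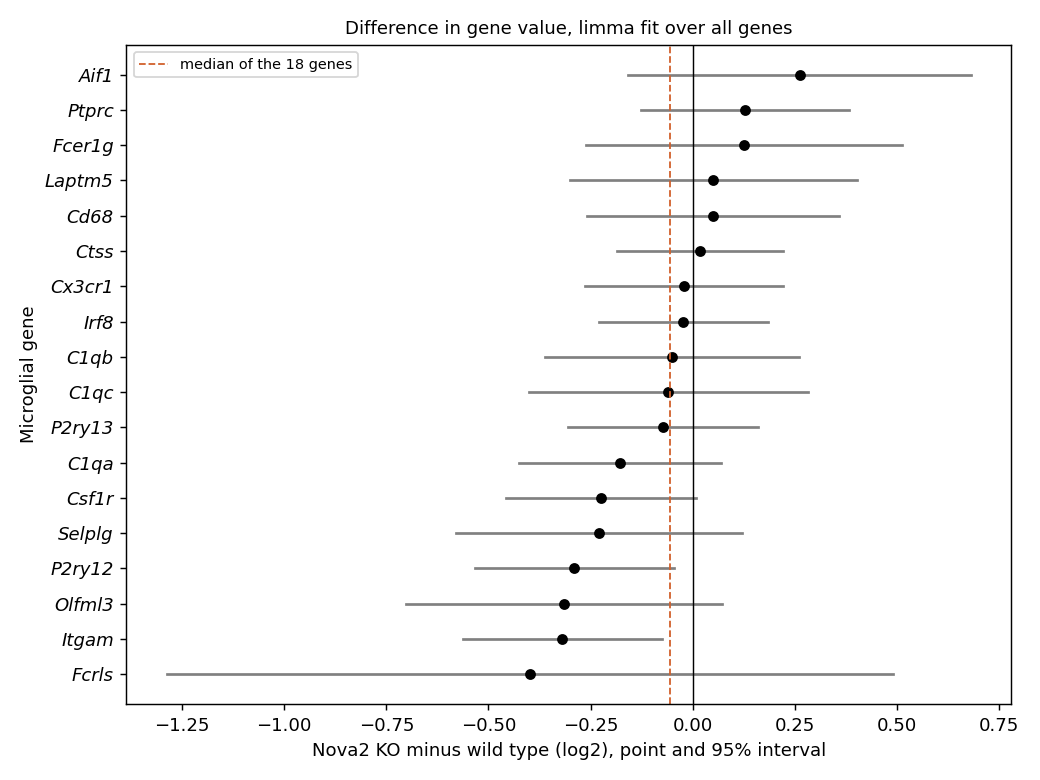
Nova2 KO minus wild type in gene value (log2, x axis) for the 18 measured microglial genes (y axis), as points with 95% intervals from the limma fit; the dashed line marks their median of -0.055 log2. The intervals of Itgam and P2ry12 lie below 0 before adjustment, and that of Fcrls is the widest, from -1.29 to 0.49 log2.

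The arrays differed more than the groups. Wild type 4 held the highest value for 9 of the 18 microglial genes, and for 7.98% of all genes. Its median deviation from each gene's mean over the 8 arrays was 0.24 log2 for the 18 genes and -0.097 log2 for all genes. On Nova2 KO 4 the same values were 0.057 and -0.055 log2. The lowest values fell on Nova2 KO 2 for 7 of the 18 genes and on Nova2 KO 1 for 6. Of all 11992 genes, 1188 were lowest on Nova2 KO 2 and 535 on Nova2 KO 1. Summed over the 18 genes, the level ran from 146.5 to 151.6 log2 units in wild type and from 145.1 to 149.0 in Nova2 KO, and the groups overlapped. Wild type 4 is also the array with the lowest median signal, whose part in these values was not tested.

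**Figure D3:**
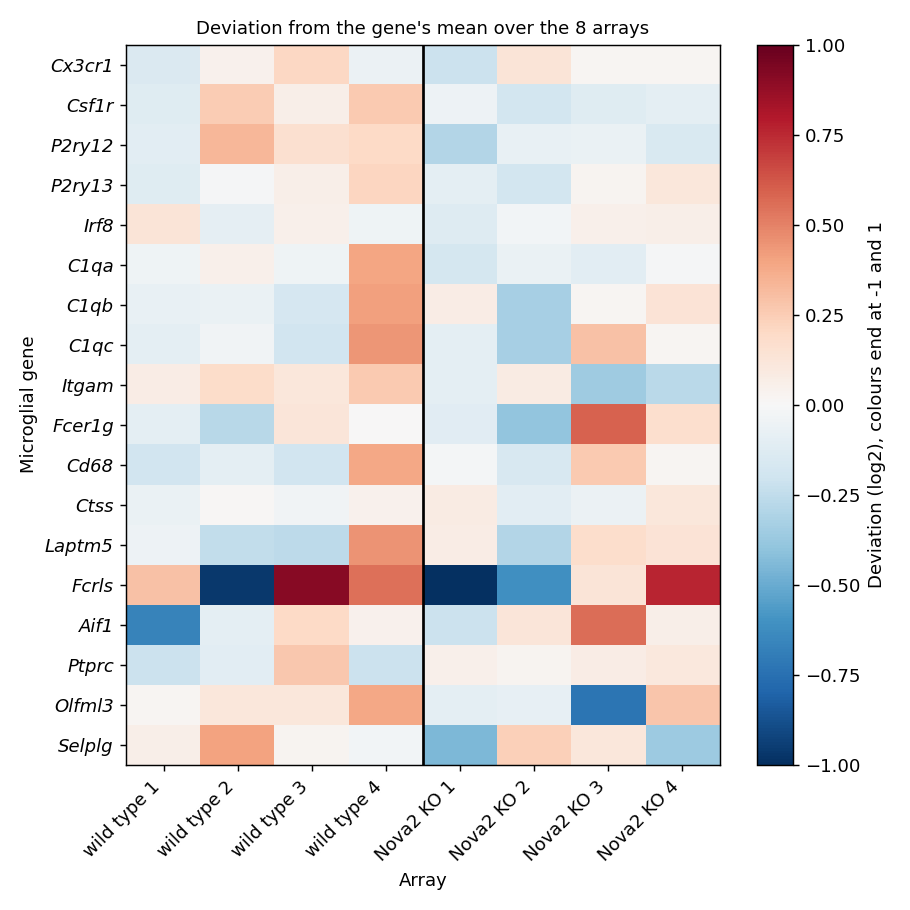
Deviation of each gene value from that gene's mean over the 8 arrays (colour, log2) for the 18 measured microglial genes (rows) and the arrays (columns, wild type left of the line). The column of wild type 4 is red for C1qa, C1qb, C1qc, Cd68 and Laptm5, and the row of Fcrls holds the strongest colours in both groups.

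Fcrls, an Fc receptor-like protein known mainly from microglia of rodents, varied most between mice of one group. Its gene values were 8.40, 7.14, 9.01 and 8.65 log2 in wild type and 7.02, 7.49, 8.23 and 8.86 log2 in Nova2 KO. Wild type 2, Nova2 KO 1 and Nova2 KO 2 lay below the other 5 arrays. The SD within groups was 0.81 log2, above that of 99.9% of all genes, whose median SD was 0.17 log2. The difference of -0.40 log2 (SE 0.41, limma adjusted p = 0.751) ran from -0.79 log2 without wild type 2 to -0.11 log2 without Nova2 KO 1.

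The 12 probe sets of Fcrls did not share this scatter equally. For 11 of them the signal spanned 0.992 to 4.31 log2 over the 8 arrays, with the lowest signal always on wild type 2, Nova2 KO 1 or Nova2 KO 2 and the highest always on wild type 3 or Nova2 KO 4. Probe set 5002217 spanned 0.705 log2 and was at 11.2, 10.97, 11.1 and 11.2 log2 in wild type and at 10.6, 10.7, 10.5 and 10.7 log2 in Nova2 KO. On that probe set the groups did not overlap, and the difference was -0.51 log2 (SE 0.12, limma adjusted p = 0.521 over all kept probe sets).

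**Figure D4:**
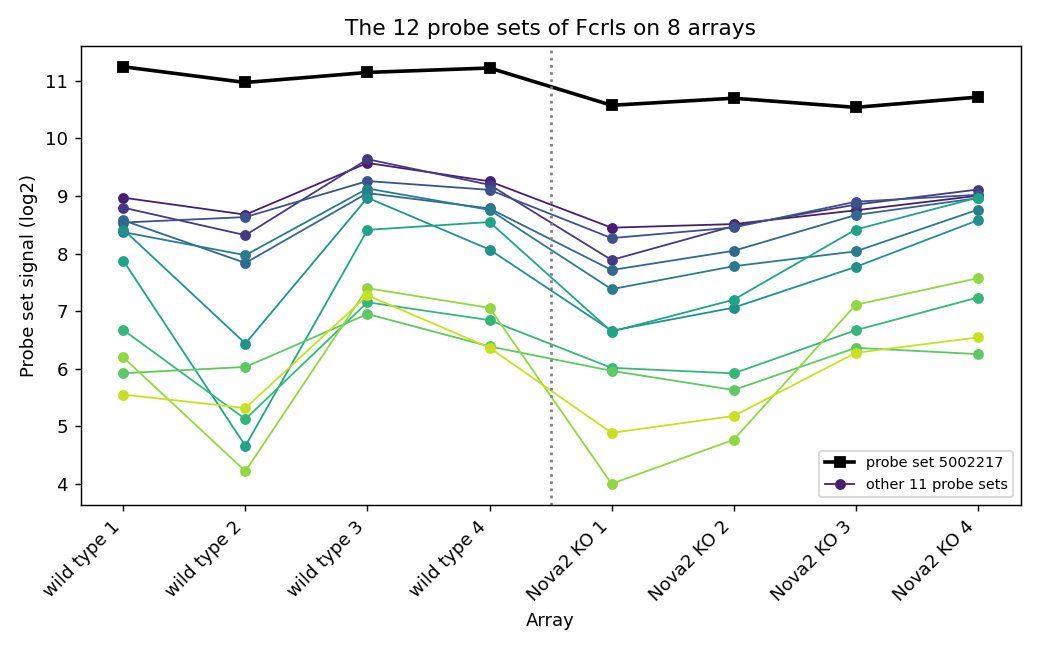
Signal (log2, y axis) of the 12 probe sets of Fcrls on the 8 arrays (x axis, dotted line between groups), with 1 line per probe set. The 11 probe sets in colour each have their lowest signal on wild type 2, Nova2 KO 1 or Nova2 KO 2, whereas probe set 5002217 (black squares) stays between 10.5 and 11.2 log2.

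Since Nova2 acts on exons, single probe sets were examined next. Of the 213 kept probe sets of the microglial genes, 136 were lower and 77 higher in Nova2 KO, and 0 passed over all 293697 kept probe sets, where 0.00681% did (limma). An unadjusted p under 0.05 was found for 27 of the 213, or 12.7%, against 6.68% of all kept probe sets. Groups without overlap were found for 18 with Nova2 KO below, against 2.04% of all, and for 2 with Nova2 KO above, against 3.05%. Probe sets of a gene share its RNA and are not replicates: 16 of the 27 belonged to Itgam and 5 to Csf1r.

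The lean differed between genes, against 48.9% of all kept probe sets with a difference below 0. For Itgam 33 of 38 probe sets were lower, by a median of -0.33 log2, and for Csf1r 27 of 32, by a median of -0.20 log2. All 11 of Selplg were lower, by -0.61 to -0.025 log2. Laptm5 (8 lower, 8 higher), Irf8 (5 and 5) and Ptprc (11 and 14) had no such lean, and for Ctss 9 of 10 and for Aif1 8 of 9 were higher. The filter read the mean over 8 arrays, so some of these probe sets passed through 1 group. Probe set 5586574 of Laptm5, counted as higher, passed through Nova2 KO 1 (8.87 log2, other arrays 5.25 to 5.64 log2). Wild type means lay below 5.86 log2 for 5405411 of Irf8 and 4332603 of Ptprc, also counted as higher. Nova2 KO means did so for 4480236 of Itgam and for 4593278 and 5243035 of Ptprc, counted as lower. Counts without such probe sets were not made.

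**Figure D5:**
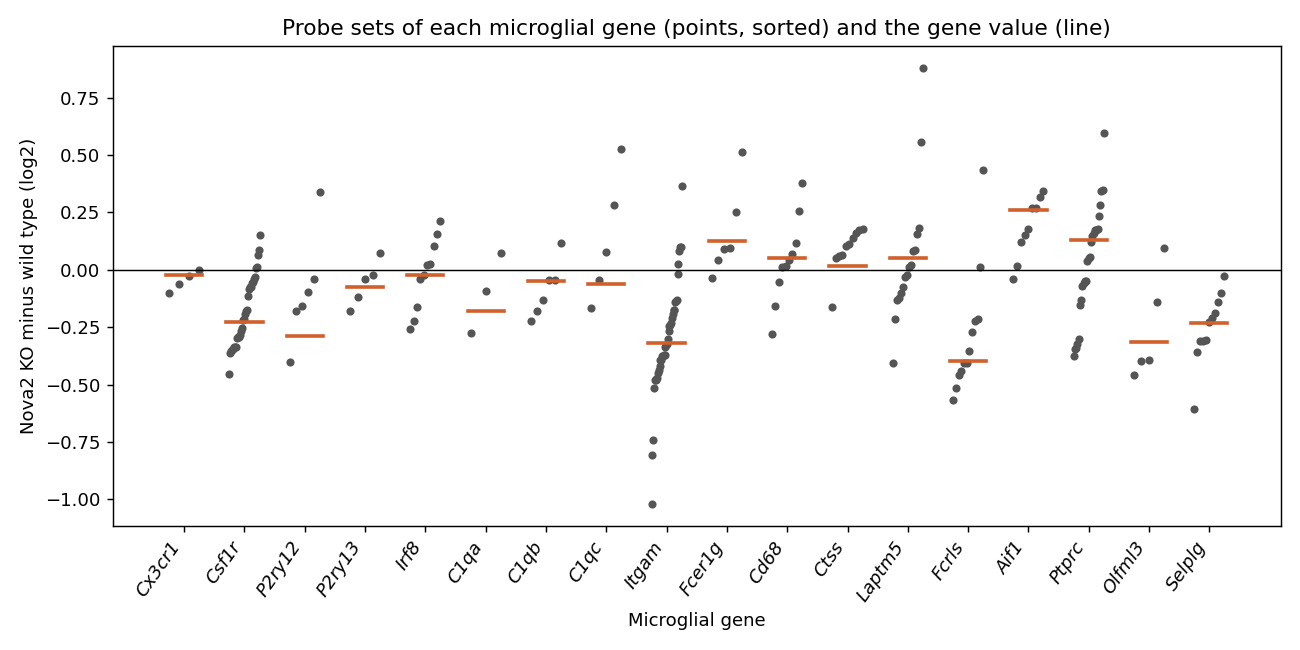
Nova2 KO minus wild type (log2, y axis) for each kept probe set (points, sorted within a gene) of the 18 measured microglial genes (x axis), with the difference of the gene value as an orange line. Most points of Itgam, Csf1r and Selplg lie below 0, and those of Laptm5, Irf8 and Ptprc lie on both sides.

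Exon usage was read as the splicing index, each probe set's log2 signal after subtracting its gene's value on that array. Indices existed for 206 probe sets of the microglial genes, and 0 passed with limma, where 0.0133% of 195014 did. At an unadjusted p under 0.05 there were 14, or 6.80%, close to the 6.76% of all probe sets. The lowest p belonged to probe set 4586288 of Ptprc, whose index differed by 0.47 log2 (SE 0.12, limma adjusted p = 0.590). Its signal was 6.24, 6.22, 6.34 and 6.02 log2 in wild type and 7.03, 6.61, 6.74 and 6.82 log2 in Nova2 KO, without overlap. Most Ptprc signal lay near or below the filter value of 5.86 log2. Of its 53 probe sets 25 were kept, and its gene value averaged 6.52 log2 in wild type. Its brightest probe set, 5122514 (10.8 log2 in wild type), differed in signal by -0.059 log2. Ptprc is known for alternative exons in lymphocytes, and which exon probe set 4586288 covers was not analysed here.

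Next was probe set 5554967 of Itgam, at 8.45, 8.54, 8.63 and 8.88 log2 in wild type and at 7.99, 8.23, 7.30 and 7.75 log2 in Nova2 KO. All Nova2 KO arrays lay below all wild type arrays, and the index differed by -0.49 log2 (SE 0.13, adjusted p = 0.593 by limma). The index of probe set 5433121 of C1qc differed by 0.34 log2 (SE 0.094, limma adjusted p = 0.616), while its signal overlapped between the groups.

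Ligands and signals that reach microglia were read from a further list, of which 12 of 16 genes were measured and 0 passed with limma. Il34, the neuronal ligand of Csf1r, had the lowest p among them. It was at 9.29, 9.36, 9.39 and 9.31 log2 in wild type and at 8.89, 8.93, 9.06 and 8.83 log2 in Nova2 KO. Every Nova2 KO array lay below every wild type array, and the difference was -0.41 log2 (SE 0.093, 95% interval -0.61 to -0.21, limma adjusted p = 0.146). Across the 17 other settings it stayed between -0.45 and -0.24 log2 with adjusted p-values from 0.0501 to 0.385.

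Csf1, the other ligand of Csf1r, was at 7.36 to 7.50 log2 in wild type and at 7.43 to 7.57 log2 in Nova2 KO, a difference of 0.071 log2 (95% interval -0.12 to 0.26). Cd200, a neuronal membrane protein that restrains microglia, differed by 0.30 log2 (SE 0.11, adjusted p = 0.306 by limma), with Nova2 KO 1 within the wild type range. Cx3cl1, the ligand of Cx3cr1, differed by -0.16 log2 (SE 0.15), with -0.29 log2 without Nova2 KO 3 and -0.070 log2 without Nova2 KO 4. Cd55, an inhibitor of complement, differed by 0.12 log2 (SE 0.11), with 0.045 log2 without wild type 4 and 0.32 log2 with no filter.

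Other genes of resting microglia went both ways, with 12 of 23 measured genes higher, 11 lower, a median of 0.0078 log2 and 0 of 23 past the threshold (limma). The lowest p belonged to Mef2c (0.37 log2, SE 0.11) and Rgs10 (0.39 log2, SE 0.12), both also expressed by neurons, followed by Slco2b1 (-0.28 log2, SE 0.099) and Hpgd (0.33 log2, SE 0.12). Groups did not overlap for these 4 and for 1 more gene of the list, Inpp5d. That is 2 of 23 with Nova2 KO below and 3 of 23 above, against 2.5% and 5.06% of all genes. With the mean over probe sets Rgs10 was at 0.12 log2, and with the filter at the 50th percentile Hpgd was at 0.15 log2.

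Of 29 listed genes of activated and axon tract microglia 12 were measured, and Spp1, Gpnmb, Clec7a and Itgax were not. The signal of the measured genes in whole cortex is not that of microglia alone. Of the 12 genes 7 were higher, with a median of 0.062 log2, and 0 passed the threshold. Those with the lowest p were the protease Ctsl (0.23 log2, SE 0.099), the growth factor Igf1 (0.22 log2, SE 0.096), the chemokine Ccl2 (-0.27 log2, SE 0.13) and the lipase Lpl (0.22 log2, SE 0.11). With the mean over probe sets Ccl2 was at -0.0020 log2 and Ctsl at 0.058 log2. Ccl2 was at -0.17 log2 without wild type 3, and Lpl at 0.14 log2 without Nova2 KO 1. All 4 measured interferon response genes were lower, with a median of -0.12 log2, and Rsad2 was at -0.29 log2 (SE 0.13), with 0.040 log2 with no filter. Of 11 measured lysosome genes 7 were lower, with a median of -0.016 log2. The lowest p was that of Unc93b1, which carries Toll-like receptors to the endosome (-0.21 log2, SE 0.10). Neither list had a member past the threshold with limma.

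Markers of other cells that share these genes were set beside them. Perivascular and meningeal macrophage markers had 6 of 8 measured genes lower and a median of -0.12 log2, with Lyve1 at 0.37 log2 (SE 0.13, 0.067 log2 with the filter at the 50th percentile) and Cd209f at -0.34 log2 (SE 0.17), which was above 0 in 3 other settings (0.15 log2 without the filter) and lay at -0.54 log2 without wild type 4. Their summed level was 56.1 to 57.7 log2 units in wild type and 56.2 to 57.3 in Nova2 KO. Of 15 monocyte and neutrophil markers 2 were measured, Vcan (0.38 log2) and Ly6c2 (-0.34 log2, and -0.20 log2 without wild type 1). Of 16 lymphocyte and mast cell markers 6 were measured, 3 higher and 3 lower, with a median of 0.069 log2. Among the higher was Cd4, at 0.34 log2 (-0.090 log2 without the filter). None of these genes passed the limma threshold.

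Markers of further cell types differed in whether their summed levels overlapped. Oligodendrocyte markers summed to 109.9 to 111.5 log2 units in wild type and 105.1 to 107.9 in Nova2 KO, without overlap, with 11 of 12 measured genes lower, against 44.6% of all genes, and 2 past the threshold, against 0.208%. The myelin genes Mal (-1.03 log2, limma adjusted p = 0.0251) and Mog (-0.77 log2, adjusted p = 0.0301) fell, a call kept in 7 and 6 of 17 other settings, and averaging probe sets instead put Mal at -0.56 log2. Endothelial and pericyte markers summed to 98.7 to 100.3 and 97.1 to 98.6 log2 units, also without overlap, with 11 of 12 lower and 0 past the threshold. All 3 measured red blood cell markers were lower, with a median of -0.38 log2 and summed levels of 21.4 to 22.5 and 20.1 to 21.6 log2 units, which overlapped. Astrocyte markers (7 of 9 lower), neuron markers (6 of 11) and meningeal and choroid plexus markers (6 of 10) had medians of -0.085, -0.093 and -0.053 log2, and their summed levels overlapped. The part of these differences in the microglial values was not tested.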

How the data were processed

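The authors deposited log2 values of 391597 probe sets on each array, made with PLIER, a model-based probe summary, per the submitters' processing notes. For its version, the background correction, normalization between arrays and the genome build, the sources used here give nothing. The lowest value was 4 log2, which an offset of 16 before the logarithm would give, and values were used as deposited. The number of arrays limits the precision.

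Platform annotation named 1 gene for 228454 probe sets, several for 3443 and none here for 159700. Of 13017 symbols, 10783 were current in the RefSeq table of GRCm38.p6, 2203 were updated through synonyms and 31 kept. Promoter sequences come from RefSeq, and 22 of the 30 listed genes had an entry.

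A probe set passed the filter if its mean signal over 8 arrays exceeded the 25th percentile (5.86 log2). Gene values needed 3 kept probe sets and splicing indices 5 per gene. Genes, probe sets and indices were tested with lmFit and eBayes of limma 3.58.1 (R 4.3.3, data.table version 1.17.8), two-sided, adjusted by Benjamini-Hochberg over all features at 0.05. Figures used Python 3.11.15 and matplotlib 3.10.9. On simulated data for 11992 genes the gene test recovered 33% of changes of 0.5 log2 and 91% of changes of 1 log2. Over 195014 indices the exon usage test recovered 52% of changes of 1 log2 and 88% of changes of 2 log2. The simulated noise was independent between genes and arrays, without shifts shared by an array. The median SD within groups was 0.20 log2 for the microglial genes and 0.17 log2 for all genes, so these rates are not specific to the microglial genes. Nothing says how mice were bred, so p-values measure the spread between these arrays.

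The microglial genes and the 14 other lists were chosen with earlier results of these data known. Named were all listed microglial genes, up to 4 members per other list with the lowest p or past the threshold, Nova2, and the 3 microglial probe sets with the lowest p. Csf1, Inpp5d and the probe sets named for brightness or for passing the filter through 1 group lie outside this rule. They were named after their values were seen. Alternatives covered scaling, filter, offset, summary, array median, replicate block and left-out arrays.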

Additional observations from a re-analysis of the deposited data

Results flagged for a closer look

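One array stood apart from the other 3 of its group in 1 of 36 groups of microglial gene values. This was Cd68 in wild type 4, at 8.28 log2 against 7.70 to 7.80 log2. Among the up to 4 genes with the lowest p in each other list, and Csf1, 7 of 108 groups had such an array. For independent, normally distributed values chance gives about 5% of groups. Here arrays carried shifts shared by many genes and these genes were picked by p, so the shares do not compare directly. Wild type 4 was low for the macrophage marker Cd209f (6.75 log2), the astrocyte gene Slc1a2 (11.5 log2), Stat2 (7.40 log2) and the neuron gene Stmn2 (12.3 log2), and high for the red blood cell gene Slc4a1 (7.54 log2). Slc4a1 was also high on Nova2 KO 2 (7.16 log2), and the astrocyte gene Aqp4 was high on wild type 3 (10.55 log2).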

How the results depend on the processing

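Under all 17 other settings, 0 microglial genes, 0 of their probe sets and 0 of their splicing indices passed with limma. The median difference over the microglial genes stayed below 0, from -0.093 log2 without wild type 1 to -0.022 log2 without Nova2 KO 2 among single arrays left out, and was -0.059 log2 without both arrays numbered 4. Itgam ran from -0.40 to -0.25 log2 and P2ry12 from -0.37 to -0.089 log2. Mal and Mog, the named genes that passed, kept their sign. Of the uncalled microglial genes, the sign turned in 5 settings for C1qc (0.20 log2 with the filter at the 50th percentile), in 4 for Cd68 and Laptm5, in 3 for C1qb and Ctss, in 2 for Cx3cr1 and Irf8 and in 1 for Fcer1g.

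The count of all genes past the threshold, 25, became 13 with arrays centred on their median, 54 with the array median as a covariate and 11 without both arrays numbered 4, and leaving out single arrays gave 6 to 16. For exon usage the count of 26 became 15 without a filter, 43 with the mean over probe sets and 2 without both arrays numbered 4, and single arrays left out gave 10 to 16. For single probe sets the count of 20 became 85 with median centring, 86 with quantile normalization, 184 with the array median as a covariate, 6 without a filter, 88 with the filter at the 50th percentile, 6 with an offset of 1 and 2 without both arrays numbered 4. Single arrays left out gave 0 to 9. The causes were not tested.

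The labels number the arrays 1 to 4 in both groups. Correlations of same-numbered deviations were 0.14, 0.33, 0.024 and 0.57, so the numbers were not taken as pairs. The summed level of the microglial genes was lower in Nova2 KO within each number (146.5 and 145.1, 147.3 and 145.7, 149.3 and 148.8, 151.6 and 149.0 log2 units). This is a description by label and not a paired comparison, and taken as groups these sums overlapped. With the replicate block 80 genes, 4 indices and 7 single probe sets passed, none of them microglial (P2ry12 adjusted p = 0.126, Itgam 0.139).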
